A study of Mus musculus with 18 samples.

Results

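Interferon-stimulated genes were followed in mouse CD8+ T cells. The set comprised 36 genes named for their known induction by interferons, matched by symbol to the Ensembl identifiers of GENCODE mouse release M21, and all 36 were among the 55536 Ensembl gene rows of the count table. The list is a list of symbols, and no level or fold change defines it. It was, however, chosen with earlier results of these data known. Its shares are therefore set beside those of all genes as a description. Type I interferons bind a surface receptor made of IFNAR1 and IFNAR2, whose kinases JAK1 and TYK2 phosphorylate STAT proteins, among them STAT2. STAT2 acts with IRF9 in the complex ISGF3, which binds a promoter sequence called the interferon-stimulated response element and turns on antiviral genes, among them the factor IRF7 that feeds back on the response. Resting T cells express many of these genes at a standing level, and interferon acting during antigen recognition is known to alter CD8+ T cell expansion.

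The libraries fell into 3 groups, all of the OT-I genotype, in which T cells carry a transgenic receptor for the ovalbumin peptide SIINFEKL, and all taken from spleen and lymph nodes. There were 2 libraries labelled Tra2b knockout, from cells at day 4 after stimulation with SIINFEKL and with antibodies against OX40 and 4-1BB, a pair of costimulatory receptors. The 8 control libraries came from cells stimulated in the same way that had received a scrambled sequence, also at day 4, and 8 libraries came from naive, unstimulated cells at day 0. Tra2b encodes a splicing factor that binds GAA-rich RNA. How the knockout was made, the age of the mice, and whether libraries of a group came from separate animals are not given in the sources used here, so the p-values speak only of how these libraries vary, which may be technical variation. Interferon was not among the listed treatments.

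Total estimated counts were 79197461 and 93495846 in the knockout libraries, 73735681 to 93972513 in the controls and between 68249844 and 86932452 in the naive libraries. Levels are given as CPM, counts scaled to a common library total, with TMM scaling over the 18 libraries. Tra2b itself stood at 361 and 370.5 CPM in the knockout libraries and at 338 to 526 CPM in the controls, a difference that did not pass the test (log2 fold change -0.34 ± 0.13 SE, adjusted p = 0.0899). It passed when control 2 was left out (adjusted p = 0.00803), against controls 3 to 8 alone (0.00901) and with a trend on exon length removed (0.0365), so the level of the targeted gene does not settle the label. The libraries are called knockout here after their label. The T cell markers Cd3d, Cd3e, Cd3g, Cd8a, Cd8b1, Trac, Cd2, Cd5, Lck and Cd247 summed to 5110 to 5910 CPM in the knockout libraries, 5400 to 6500 CPM in the controls and 8070 to 9690 CPM in the naive libraries. The segment Trbv12-1 of the OT-I receptor held 99.4 to 99.7% of the counts of 35 Trbv genes in the knockout libraries, 99.6 to 99.8% in the controls and between 5.95 and 12.4% in the naive libraries. This goes against the OT-I label of the naive libraries, which differed from the stimulated ones in receptor make-up as well as in stimulation. The parts of both in the differences between them cannot be told apart. In bulk RNA, fewer cells of a type and less RNA per cell cannot be told apart either.

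The response element was looked for in RefSeq promoter sequences of GRCm38.p6, 250 bases before to 50 bases after each start, which covered 27 of the 36 genes. The short form, GAAA and GAAA with any 2 bases between them, on either strand, occurred in 14 of these 27 genes (51.9%), against 3.99% of 27025 genes with a promoter entry. The longer form, in which the second GAAA is followed by CT and which contains the short form, occurred in 7 of the 27 genes (25.9%) and in 0.303% of all genes. The letters TTCNNNGAA, read by STAT dimers, occurred in 22.2% of the genes and in 9.55% of all. The genes with the short form were Bst2, Ddx58, Eif2ak2, Ifi203, Ifih1, Ifit1, Ifit3, Ifit3b, Isg15, Oas1a, Oas3, Rsad2, Stat2 and Trim30a. The stretches that follow are shown because they belong to genes that differed strongly between controls and naive libraries (Ifit3, Ifit1, Rsad2, Isg15, Stat2) and to one that differed little (Oas3). Capitals mark the short form or, where it lies on the other strand, its reverse complement, and overlapping matches are joined.
Ifit3: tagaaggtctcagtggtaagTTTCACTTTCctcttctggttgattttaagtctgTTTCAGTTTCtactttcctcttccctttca
Ifit1: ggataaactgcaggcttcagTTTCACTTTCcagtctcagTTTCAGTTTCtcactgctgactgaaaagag
Rsad2: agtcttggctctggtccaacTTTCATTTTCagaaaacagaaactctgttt
Isg15: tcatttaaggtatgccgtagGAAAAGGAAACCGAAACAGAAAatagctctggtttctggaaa
Stat2: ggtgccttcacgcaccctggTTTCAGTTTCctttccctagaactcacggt
Oas3: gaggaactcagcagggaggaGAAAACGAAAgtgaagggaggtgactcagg

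The Ifit3 stretch is chr19:34583353-34583436 on the plus strand, and Ifit3b holds an identical stretch of 84 bases at chr19:34607749-34607832. The Ifit1 stretch is chr19:34640765-34640833 (plus strand), that of Rsad2 is chr12:26456543-26456592 (minus strand), and that of Isg15 is chr4:156200855-156200916 (minus strand), with 3 overlapping matches. The Stat2 stretch is chr10:128270256-128270305 (plus strand) and the Oas3 stretch chr5:120777705-120777754 (minus strand). Ifih1 and Eif2ak2, the 2 genes that were not lower in the controls, held the letters past the start, at positions 32 to 41 and 18 to 27. Ddx58 and one of the 2 Trim30a promoters held them past the start as well, at positions 2 to 11, and both genes were lower in the controls. The log2 fold change of controls over naive libraries had a median of -1.51 among the 14 genes with the letters and of -1.30 among the 13 without, ranging from -4.27 to 0.71 and from -4.85 to -0.34. These ranges overlapped over most of their length, and nothing is drawn here from the absence of the letters in the other windows.

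Of the 36 interferon-stimulated genes, 34 were lower in the stimulated controls than in the naive libraries, where 39.0% of all 17078 genes tested were lower. Ifih1 was the 1 gene that was higher, where 32.5% of all genes were, and Eif2ak2 did not pass the test. The median log2 fold change of the 36 genes was -1.35, beside -0.08 over all genes tested. Taking both directions, 35 of the 36 passed, and 71.5% of all genes did. For 25 of the 36, every control lay below every naive library, which held for 18.8% of all 20750 genes measured, and for 0 of the 36 every control lay above, which held for 16.6%. The strongest falls on the log2 scale were those of Ifi44 (-4.85), Ifit3 (-4.27), Ifit3b (-4.19), Oasl1 (-4.04) and Oas2 (-3.63), and the weakest those of Oas3 (-0.35) and Cmpk2 (-0.34). The 2 calls nearest the threshold, Oas3 and Cmpk2, were lost when any of 12 (Oas3, adjusted p 0.0527 to 0.111) and 9 (Cmpk2, 0.0600 to 0.0877) single libraries was left out.

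Tra2b knockout libraries were then set against controls. Of the 36 genes, 5 passed the test (13.9%), where 14.9% of all 18651 genes tested did, so the share among these genes was near that of the background. Parp14 and Dtx3l were higher (7.62% of all genes were), and Cmpk2, Isg20 and Ifi35 were lower (7.24% of all genes were). The median log2 fold change of the 36 genes was -0.32 (27 negative and 9 positive), beside -0.01 over all genes. Both knockout libraries lay above all controls for 2 genes, Mx1 and Ifi209, and below all controls for 4, Irf7, Irf9, Cmpk2 and Isg20, against 10.2% and 11.6% of all genes. The calls did not all hold when either knockout library was left out, which leaves 1 library in that group. Without knockout library 2 the median log2 fold change of the 36 genes was -0.23, beside -0.04 over all genes. Without knockout library 1 it was -0.44, beside -0.05 over all genes.

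**Figure D1:**
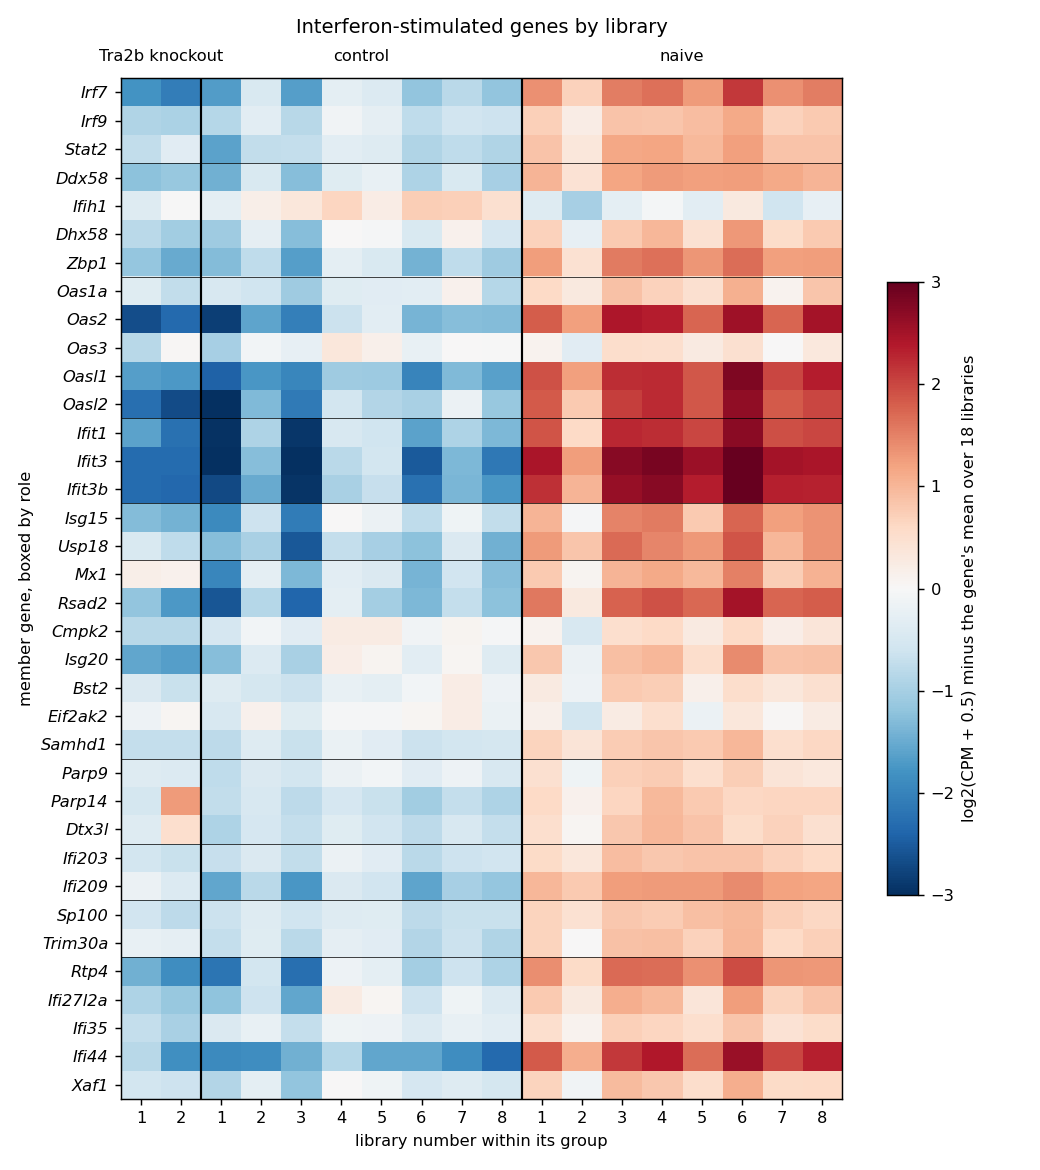
Level of each of the 36 genes (down the page, boxed by role) in each of the 18 libraries (across, Tra2b knockout left of control and naive), as log2(CPM + 0.5) minus the gene's mean over the 18 libraries. Naive columns are red in nearly all boxes, knockout and control columns are mostly blue, Ifih1 is red in most controls, and Parp14 and Dtx3l are red in knockout library 2.

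Libraries of one group differed from each other in step across these genes, as the coloured plot of all libraries shows. Naive library 6 held the highest value of its group for 27 of the 36 genes (13.2% of all genes), and naive library 2 held the lowest for 35 (19.7% of all genes). Among controls, library 4 was highest for 20 genes (12.4% of all genes), while library 1 was lowest for 18 (26.6%) and library 3 for 13 (11.1%). The median deviation from the group mean, on the scale log2(CPM + 0.5), was -0.67 in naive library 2, 0.45 in naive library 6, -0.54 in control 1, -0.46 in control 3 and 0.48 in control 4, where the median over all genes was between -0.0163 and -0.000219. The highest library of the controls held between 1.33 times (Sp100) and 12.5 times (Oas2) the value of the lowest, with a median ratio of 2.51 over the 35 genes above 0 in every control. In the naive libraries the ratio ran from 1.42 (Sp100) to 4.87 (Ifit3b), with a median of 2.13. What these libraries had in common was not tested.

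To compare levels between genes, each transcript's counts were divided by its length and summed to CPM per kilobase. Ifi27l2a, a small interferon-induced membrane protein, had the highest level per kilobase in both large groups, at 476 ± 187 in the controls and 1126 ± 252 in the naive libraries (SD, n = 8 each). Sp100 followed, at 226 ± 24.0 CPM per kilobase in the controls and 527 ± 57.9 in the naive libraries. In the naive libraries Samhd1 (191 ± 27.8), Bst2 (179 ± 37.4), Irf7 (174 ± 44.9) and Rtp4 (171 ± 48.2) came next, and these 4 neighbours did not differ beyond their spread. Irf7 held rank 10 of the 36 genes in the controls, at 33.1 ± 12.5 CPM per kilobase, against rank 5 in the naive libraries. Ifi44, Oas2 and Ifih1 had the lowest levels per kilobase in the naive libraries, at 3.74 ± 1.15, 6.71 ± 2.09 and 6.78 ± 1.67. Rsad2 came next, at 8.67 ± 3.12.

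All 3 transcription factors of the pathway were lower in the controls than in the naive libraries. Irf7, which amplifies the interferon response, was at 34.9 and 28.8 CPM in the knockout libraries, between 38.2 and 99.1 CPM (median 61.2) in the controls and between 198 and 533 CPM (median 338) in the naive libraries. The 3 groups did not overlap, with the knockout libraries lowest and the naive libraries highest. The log2 fold change was -2.38 ± 0.22 (SE, adjusted p = 2.64e-08) for controls over naive libraries and -1.06 ± 0.37 (SE, adjusted p = 0.0804) for knockout over control, which did not pass the test. That difference passed in DESeq2 (adjusted p = 0.0387) and in edgeR without control 1 (0.0449) or control 3 (0.0432). DESeq2 called more genes in all, 3789 against 2772, and controls 1 and 3 held the lowest Irf7 values of the controls, at 38.2 and 38.4 CPM. Irf9, the DNA-binding subunit of ISGF3, was at 71.8 and 69.0 CPM in the knockout libraries, between 74.2 and 125 CPM (median 88.3) in the controls and between 155 and 296 CPM (median 234) in the naive libraries. Its order of groups was that of Irf7, with log2 fold changes of -1.31 ± 0.12 (SE, adjusted p = 2.94e-08) for controls over naive libraries and -0.40 ± 0.19 (SE, adjusted p = 0.177) for knockout over control. Stat2, whose protein belongs to that complex, was at 37.4 and 49.3 CPM in the knockout libraries, between 20.4 and 50.2 CPM (median 37.4) in the controls and between 79.2 and 149 CPM (median 119) in the naive libraries. Knockout libraries and controls overlapped for Stat2, both below the naive libraries, and the log2 fold change of controls over naive libraries was -1.71 ± 0.15 (SE, adjusted p = 1.29e-08). Reads of Irf7 and its opposite-strand neighbour Phrf1, and of Irf9 and Rnf31 on the same strand, may be shared, since whether counting used the strand is not given in the sources used here.

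The sensors of foreign nucleic acid split. Ddx58, which encodes the RNA sensor RIG-I, was at 36.1 and 38.6 CPM in the knockout libraries, between 31.1 and 73.2 CPM (median 53.6) in the controls and between 117 and 211 CPM (median 193) in the naive libraries. Zbp1, a sensor of Z-form nucleic acid that can start cell death, was at 41.2 and 32.6 CPM in the knockout libraries, between 29.4 and 75.3 CPM (median 49.4) in the controls and between 128 and 297 CPM (median 228) in the naive libraries. For both genes the knockout libraries lay within the range of the controls and all of them lay below the naive libraries, with log2 fold changes of controls over naive libraries of -1.81 ± 0.17 (SE, adjusted p = 2.53e-08) for Ddx58 and -2.25 ± 0.20 (SE, adjusted p = 1.17e-08) for Zbp1. Ifih1, which encodes MDA5, the sensor of long double-stranded RNA, ran the other way, at 31.5 and 41.1 CPM in the knockout libraries, between 33.6 and 69.1 CPM (median 55.0) in the controls and between 20.5 and 50.5 CPM (median 33.4) in the naive libraries. Controls were on the whole above naive libraries, with overlap, and knockout library 1 lay below every control and library 2 inside their range. Its log2 fold change was 0.71 ± 0.16 (SE, adjusted p = 0.000708) for controls over naive libraries and -0.60 ± 0.23 (SE, adjusted p = 0.103) for knockout over control. With controls 1 and 2 alone, the controls' rise of Ifih1 no longer passed (log2 fold change 0.30, adjusted p = 0.316). Without control 1, the lowest of the controls for this gene, the lower value in the knockout libraries passed (log2 fold change -0.67, adjusted p = 0.0231). Dhx58, which encodes the RIG-I-like regulator LGP2, fell by 1.09 on the log2 scale in the controls relative to naive libraries.

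**Figure D2:**
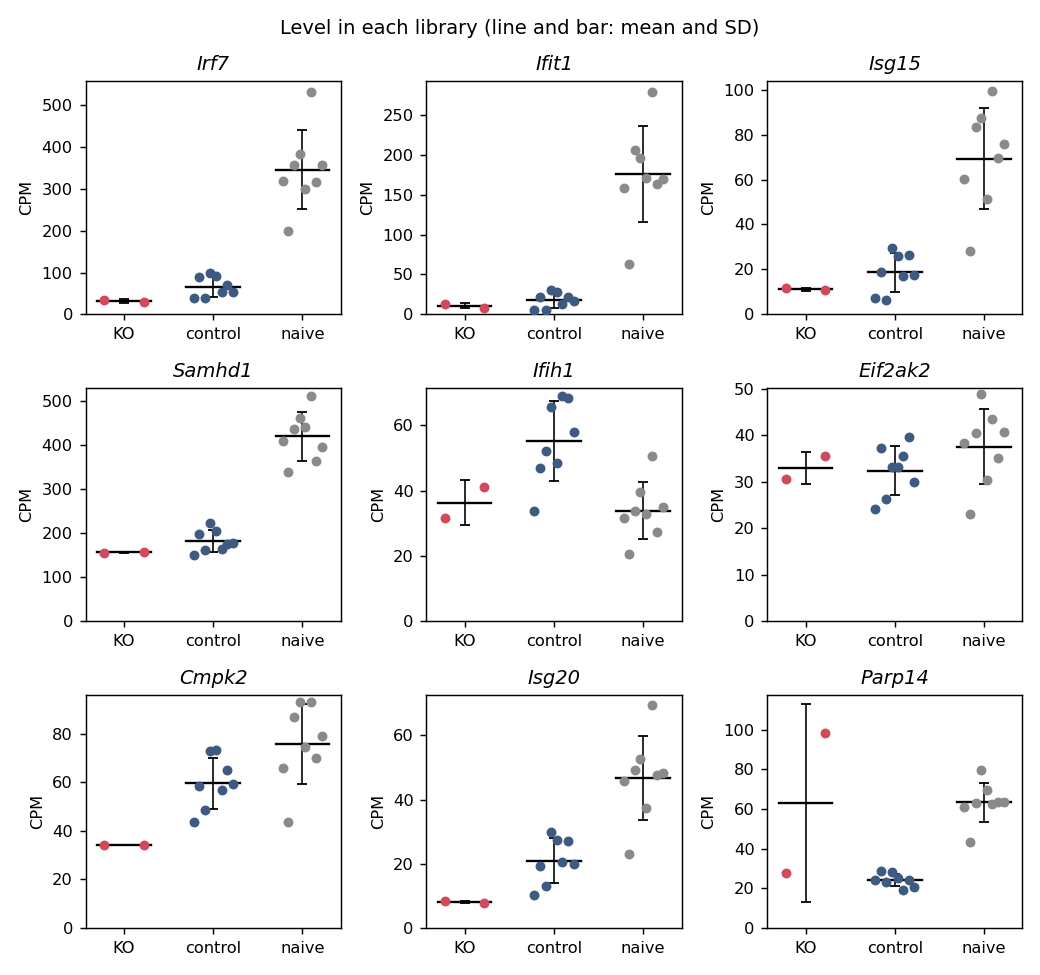
CPM of 9 of the genes in each library (points), with the mean and SD of each group, Tra2b knockout (KO) left of control and naive, and axes starting at 0. Irf7, Ifit1, Isg15 and Samhd1 are highest in naive libraries, Ifih1 is highest in controls, Eif2ak2 overlaps in all groups, Cmpk2 and Isg20 are lowest in the knockout libraries, and Parp14 has its 2 knockout points far apart, at 27.8 and 98.1 CPM.

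The OAS enzymes make short 2′-5′ linked adenylate chains that activate the nuclease RNase L. All 5 family members were lower in the controls than in the naive libraries, but by very different amounts. Oas3 was at 46.5 and 84.6 CPM in the knockout libraries, between 41.4 and 104 CPM (median 80.1) in the controls and between 65.1 and 119 CPM (median 101) in the naive libraries, and all groups overlapped. Controls over naive libraries gave -0.35 ± 0.15 (SE, adjusted p = 0.0459) on the log2 scale. Oasl2, an OAS-like protein, was at 3.95 and 2.79 CPM in the knockout libraries, between 1.85 and 18.4 CPM (median 9.70) in the controls and between 35.9 and 135 CPM (median 80.6) in the naive libraries. Every stimulated library lay below every naive library for Oasl2, whose log2 fold change of controls over naive libraries was -3.12 ± 0.36 (SE, adjusted p = 4.11e-07). The log2 fold changes of Oas2, Oasl1 and Oas1a in that comparison were -3.63, -4.04 and -1.11. In 57.6% of its 50-base words Oas1a is identical to Oas1g, so its counts may hold reads of that neighbour. Between knockout and control the log2 fold changes of the 5 ran from -1.79 (Oas2, adjusted p = 0.117) to -0.08 (Oas1a), and 0 of 5 passed. Oas2 passed without control 1 (adjusted p = 0.0336) and Oasl2 did too (adjusted p = 0.0295). Control 1 held the lowest value of the controls for both, at 0.343 and 1.85 CPM.

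The IFIT proteins, which bind the ends of viral RNA, had among the largest differences. Ifit1 was at 13.5 and 8.54 CPM in the knockout libraries, between 4.94 and 30.0 CPM (median 19.1) in the controls and between 63.7 and 279 CPM (median 170.3) in the naive libraries. Ifit3 was at 6.74 and 6.80 CPM in the knockout libraries, between 2.31 and 24.2 CPM (median 10.6) in the controls and between 85.8 and 378 CPM (median 208) in the naive libraries. Ifit3b, its near-copy on the same chromosome, was at 2.37 and 2.26 CPM in the knockout libraries, between 1.35 and 8.31 CPM (median 4.09) in the controls and between 28.3 and 138 CPM (median 71.6) in the naive libraries. For all 3 genes the knockout libraries lay within the controls, and both stimulated groups lay wholly below the naive libraries. The log2 fold changes of controls over naive libraries were -3.31 ± 0.37 (SE, adjusted p = 3.65e-07) for Ifit1, -4.27 ± 0.46 (SE, adjusted p = 2.36e-07) for Ifit3 and -4.19 ± 0.38 (SE, adjusted p = 2.22e-08) for Ifit3b, which are falls to 0.101, 0.0520 and 0.0548 of the naive level. Ifit3 shares 51.2% of its 50-base words with Ifit3b, so the split between them is uncertain. For knockout over control, their log2 fold changes were -0.68, -0.75 and -0.86 (adjusted p = 0.533, 0.572 and 0.368).

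Isg15, a ubiquitin-like protein that is attached to other proteins, was at 11.6 and 10.7 CPM in the knockout libraries, between 6.42 and 29.5 CPM (median 18.2) in the controls and between 28.4 and 99.2 CPM (median 72.6) in the naive libraries. The highest control just reached into the naive range, and the log2 fold change of controls over naive libraries was -1.89 ± 0.30 (SE, adjusted p = 2.05e-05). Usp18, the protease that removes ISG15 and also restrains the interferon receptor, was at 52.3 and 41.9 CPM in the knockout libraries, between 11.9 and 53.1 CPM (median 33.1) in the controls and between 128 and 266 CPM (median 181) in the naive libraries. The knockout libraries lay in the upper part of the controls' range for Usp18, below all naive libraries, and the log2 fold changes were -2.49 ± 0.23 (SE, adjusted p = 2.16e-08) for controls over naive libraries and 0.50 ± 0.36 (SE, adjusted p = 0.401) for knockout over control.

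Of the 7 other antiviral effectors, 6 were lower in the controls than in the naive libraries. Samhd1, which breaks down deoxynucleotides, was at 156 and 156 CPM in the knockout libraries, between 151 and 223 CPM (median 177) in the controls and between 339 and 512 CPM (median 423) in the naive libraries. Bst2, also called tetherin, which holds budding virus at the cell surface, was at 76.8 and 66.1 CPM in the knockout libraries, between 66.6 and 122 CPM (median 87.6) in the controls and between 94.4 and 182 CPM (median 139) in the naive libraries. Naive libraries lay wholly above the controls for Samhd1 and mostly above for Bst2, with log2 fold changes of controls over naive libraries of -1.20 ± 0.09 (SE, adjusted p = 1.37e-09) and -0.66 ± 0.13 (SE, adjusted p = 0.000208). Eif2ak2 encodes PKR, the kinase that stops translation on double-stranded RNA, and was at 30.6 and 35.5 CPM in the knockout libraries, between 24.1 and 39.7 CPM (median 33.2) in the controls and between 23.0 and 48.9 CPM (median 39.4) in the naive libraries. The 3 groups overlapped, and the log2 fold changes were -0.21 ± 0.13 (SE, adjusted p = 0.163) for controls over naive libraries and 0.03 ± 0.17 (SE, adjusted p = 0.927) for knockout over control. Without naive library 2, the lowest naive library for this gene, the Eif2ak2 difference between controls and naive libraries passed the test, at -0.29 (adjusted p = 0.0317). Mx1, a dynamin-like GTPase, and Rsad2, the enzyme viperin, fell by 1.85 and 3.03 on the log2 scale in the controls relative to naive libraries.

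Cmpk2, a mitochondrial nucleotide kinase, and Isg20, a 3′-5′ exonuclease, were the effectors that also differed between knockout and control. Cmpk2 was at 34.0 and 34.0 CPM in the knockout libraries, between 43.4 and 73.0 CPM (median 58.8) in the controls and between 43.7 and 93.1 CPM (median 76.7) in the naive libraries. Both knockout libraries lay below every control, while controls and naive libraries overlapped. Its log2 fold change was -0.81 ± 0.18 (SE, adjusted p = 0.0115) for knockout over control and -0.34 ± 0.14 (SE, adjusted p = 0.0304) for controls over naive libraries. Isg20 was at 8.42 and 7.87 CPM in the knockout libraries, between 10.3 and 30.0 CPM (median 20.2) in the controls and between 22.9 and 69.6 CPM (median 47.9) in the naive libraries. Again both knockout libraries lay below every control, and the controls reached into the naive range. The log2 fold change of Isg20 was -1.36 ± 0.36 (SE, adjusted p = 0.0246) for knockout over control and -1.15 ± 0.22 (SE, adjusted p = 0.000113) for controls over naive libraries. With a single knockout library, which is then assumed to vary like the controls, the log2 fold changes stayed near these values but the calls were lost. Cmpk2 was at -0.82 without knockout library 1 (adjusted p = 0.0566) and -0.80 without library 2 (adjusted p = 0.114). Isg20 was at -1.42 without library 1 (adjusted p = 0.111) and -1.30 without library 2 (adjusted p = 0.222). Mx1, at 21.8 and 20.96 CPM in the knockout libraries and between 4.57 and 15.6 CPM (median 10.2) in the controls, lay above every control but missed the threshold at a log2 fold change of 1.03 with an SE of 0.37 and an adjusted p of 0.0845. It passed in DESeq2 (adjusted p = 0.0300) and against controls 3 to 8 alone (0.0453).

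Parp9, Dtx3l and Parp14 act in ADP-ribosylation, and PARP9 forms a complex with DTX3L, a ubiquitin ligase. All 3 were lower in the controls than in the naive libraries, with log2 fold changes of -0.85 ± 0.12 (SE, adjusted p = 3.06e-06), -1.27 ± 0.11 (SE, adjusted p = 9.48e-09) and -1.39 ± 0.10 (SE, adjusted p = 1.39e-09). Parp9 was at 112 and 109.7 CPM in the knockout libraries, between 85.3 and 138 CPM (median 112) in the controls and between 133 and 249 CPM (median 205) in the naive libraries, with the knockout libraries inside the controls. Dtx3l was at 71.1 and 132 CPM in the knockout libraries, between 49.1 and 73.1 CPM (median 59.9) in the controls and between 97.2 and 186 CPM (median 145) in the naive libraries. Knockout library 1 lay inside the range of the controls and library 2 above it. Parp14 was at 27.8 and 98.1 CPM in the knockout libraries, between 19.3 and 28.7 CPM (median 24.1) in the controls and between 43.5 and 79.7 CPM (median 63.2) in the naive libraries. Here too knockout library 1 lay inside the controls, whereas library 2 exceeded every control and every naive library. The log2 fold changes of knockout over control were 0.74 ± 0.18 (SE, adjusted p = 0.0179) for Dtx3l and 1.38 ± 0.29 (SE, adjusted p = 0.00847) for Parp14. Without knockout library 2 these became 0.24 (adjusted p = 0.540) and 0.22 (adjusted p = 0.611), so both rises rested on that library. Parp9 and Dtx3l overlap on opposite strands, so reads may be shared between them.

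Knockout library 2 also stood apart in another measure that moves with gene length. Among genes with a mean of at least 5 CPM, its log2 ratio over knockout library 1, with 0.5 CPM added, had a median of -0.14 for merged exon lengths of 1001 to 2000 bases, 0.28 for 8001 to 12000 bases and 0.43 above 12000 bases. At least 2-fold higher values in library 2 were found for 0.276%, 8.47% and 12.2% of the genes in these classes. Parp14, with 9306 bases of merged exons, had a log2 ratio of 1.80, and Dtx3l, with 5725 bases, had 0.89. Oas3 (7069 bases) followed at 0.86, whereas Samhd1, at 9150 bases about as long as Parp14, had 0.00. The difference between long genes (over 8000 bases) and short ones (1001 to 2000 bases) was also taken, each relative to the controls' mean. It was 0.11 in knockout library 1 and 0.56 in knockout library 2. In the controls it ran from -0.17 to 0.11 and in the naive libraries from 0.29 to 0.56. With a trend on exon length removed, Parp14 was at 1.12 (adjusted p = 0.0127) and Dtx3l at 0.65 (adjusted p = 0.0201) for knockout over control, and 4 of the 36 genes were lower and 2 higher, Ifih1 being the gene added (-0.77, adjusted p = 0.0366). Beyond that trend, the part of length in these values was not tested.

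**Figure D3:**
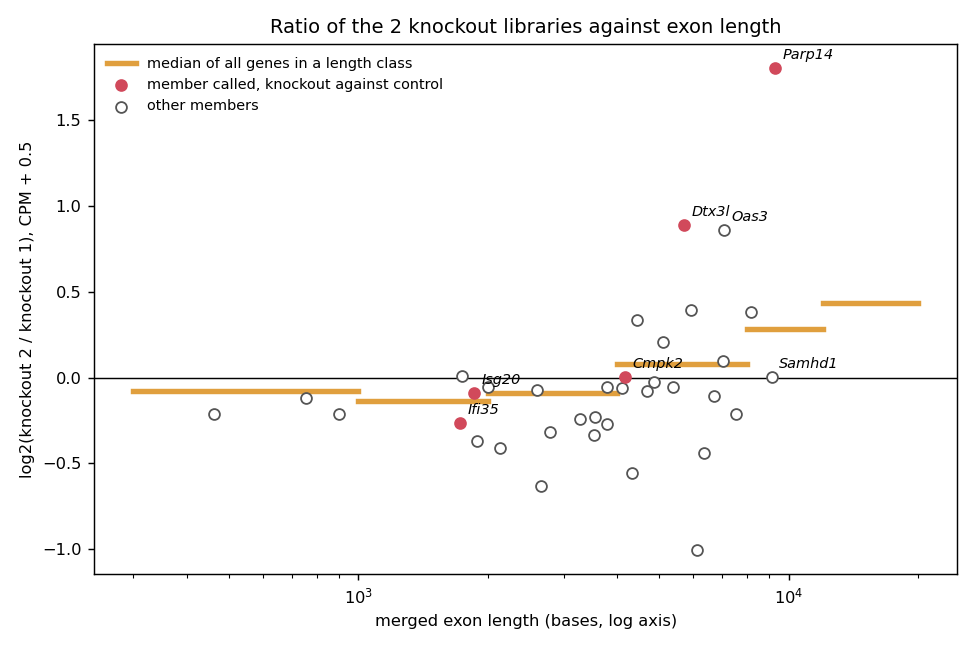
Log2 ratio of knockout library 2 over knockout library 1 (CPM + 0.5) for each of the 36 genes against its merged exon length on a log axis, with the 5 genes called in knockout against control filled. Bars give the median of all genes in each length class, from -0.14 (1001 to 2000 bases) to 0.43 (above 12000 bases), and Parp14 lies at 1.80 and Dtx3l at 0.89.

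The p200 proteins Ifi203 and Ifi209 belong to a family of nucleic acid binding proteins. Ifi203 was at 143 and 133 CPM in the knockout libraries, between 121 and 186 CPM (median 139) in the controls and between 269 and 403 CPM (median 354) in the naive libraries. Ifi209 was at 177 and 150.5 CPM in the knockout libraries, between 58.8 and 148 CPM (median 93.8) in the controls and between 344 and 533 CPM (median 468) in the naive libraries. Naive libraries were highest for both, and the knockout libraries lay inside the controls for Ifi203 and above all of them for Ifi209. Log2 fold changes of controls over naive libraries were -1.25 ± 0.09 (SE, adjusted p = 1.73e-09) and -2.23 ± 0.17 (SE, adjusted p = 2.86e-09). That of knockout over control for Ifi209 was 0.76 ± 0.30 (SE, adjusted p = 0.110), which missed the threshold. It passed without control 4, the highest control for this gene (adjusted p = 0.0485), and with all groups in 1 fit (0.0437). Ifi209 shares 34.7% of its 50-base words with Ifi214, and its counts are uncertain to that extent.

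Sp100, a component of PML nuclear bodies, was at 416 and 359.9 CPM in the knockout libraries, between 364 and 482 CPM (median 404) in the controls and between 865 and 1227 CPM (median 1039.9) in the naive libraries. Trim30a, a TRIM-family protein, was at 101 and 96.9 CPM in the knockout libraries, between 62.7 and 97.7 CPM (median 73.6) in the controls and between 118 and 236 CPM (median 190.5) in the naive libraries. Naive libraries lay above all stimulated libraries for both genes, with log2 fold changes of controls over naive libraries of -1.30 ± 0.08 (SE, adjusted p = 8.22e-11) and -1.30 ± 0.13 (SE, adjusted p = 3.65e-08). Between knockout and control they were -0.13 ± 0.12 (SE, adjusted p = 0.526) and 0.36 ± 0.16 (SE, adjusted p = 0.174).

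Among the 5 remaining genes, Ifi27l2a was at 155 and 134 CPM in the knockout libraries, between 99.4 and 353 CPM (median 207) in the controls and between 364 and 705 CPM (median 524) in the naive libraries. Ifi35, a leucine zipper protein, was at 74.1 and 61.7 CPM in the knockout libraries, between 73.6 and 112 CPM (median 101) in the controls and between 132 and 218 CPM (median 176) in the naive libraries. All stimulated libraries lay below all naive libraries for both, with log2 fold changes of controls over naive libraries of -1.24 ± 0.22 (SE, adjusted p = 5.86e-05) and -0.86 ± 0.09 (SE, adjusted p = 1.92e-07). Ifi35 was also lower in the knockout libraries than in the controls, at -0.52 ± 0.15 (SE, adjusted p = 0.0314), with knockout library 1 just inside the range of the controls. That call was lost without knockout library 2, control 7 or control 8, and against controls 3 to 8 alone (adjusted p = 0.316 without knockout library 2, 0.0507 without control 8 and 0.0512 against controls 3 to 8, and at the threshold without control 7). Ifi44, Rtp4 and Xaf1 had log2 fold changes of -4.85, -2.30 and -1.13 for controls over naive libraries, and 0 of these 3 passed for knockout over control. Rtp4 overlaps Masp1 on the opposite strand.

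**Figure D4:**
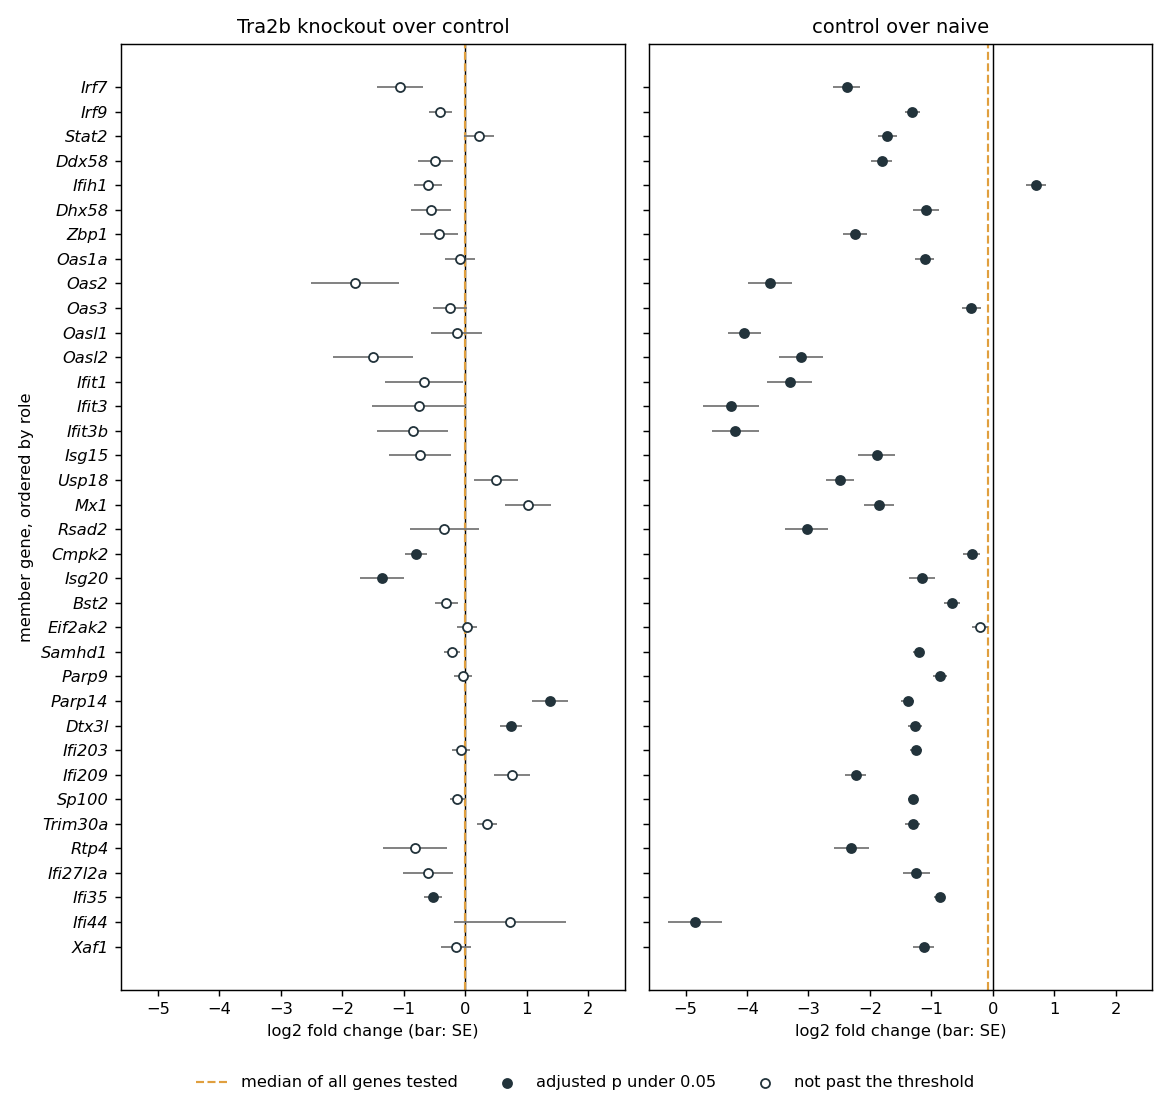
Log2 fold change (edgeR) with an SE derived from the test's F statistic for each of the 36 genes, Tra2b knockout over control in the left panel and control over naive in the right. Filled points passed an adjusted p of 0.05, and the dashed line is the median of all genes tested (-0.01 left, -0.08 right). In the right panel 34 filled points lie left of 0 and Ifih1 alone lies right of it, while in the left panel 5 points are filled, on both sides of 0.

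Knockout libraries set against naive libraries shared their naive libraries with the comparison of controls, so that the 2 results are not independent. Of the 36 genes, 31 were lower in the knockout libraries (23.6% of all 19776 genes tested) and 0 were higher (21.1% of all genes) by edgeR, so that 31 of 36 passed where 44.7% of all genes did. At an unadjusted p under 0.05 none was higher either, 0 of 36, and DESeq2 and limma voom also called 0 higher. The median log2 fold change was -1.54, beside -0.08 over all genes. In 30 genes both knockout libraries lay below all naive libraries, as in 24.0% of all genes, and in 0 genes both lay above all of them, as in 20.6%. Mx1 was called lower (-0.79 ± 0.27 SE, adjusted p = 0.0293) but overlapped the naive libraries. With all groups in 1 edgeR fit it did not pass (adjusted p = 0.0926). Its log2 fold change was -0.85 without knockout library 1 and -0.75 without library 2, and the call was lost each time. The 5 that did not pass were Ifih1 (0.13), Oas3 (-0.57), Eif2ak2 (-0.15), Parp14 (0.02) and Dtx3l (-0.50). Irf7, for example, was at -3.41 ± 0.32 (SE, adjusted p = 6.00e-06) here on the log2 scale and Oas2 at -5.39 ± 0.46 (SE, adjusted p = 3.11e-06). Of these, 3 depended on the knockout library. Without library 2, Dtx3l was at -0.99 (adjusted p = 0.0151) and Oas3 at -1.04 (adjusted p = 0.0147), and both passed. They also passed without naive library 2, at -0.59 (adjusted p = 0.0343) and -0.66 (adjusted p = 0.0216). For Parp14, without knockout library 2 the log2 fold change was -1.13 (adjusted p = 0.00344) and without knockout library 1 it was 0.64 (adjusted p = 0.0305).

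Beyond the 36 genes, 134 further genes of the interferon pathway in 6 lists were examined, of which 131 were matched. Apart from Ifng, the interferons themselves were at low or 0 counts. Of 21 interferon genes 15 had 0 counts in all 18 libraries, which allows up to 0.0319 to 0.0440 CPM at the depth of these libraries (3 counts of the total, counting error only), and Ifng, the interferon made by T cells, was the only one measured above 1 CPM. Ifnz, a type I interferon gene with counts in all 18 libraries, was at 0.0659 and 0.0899 CPM in the knockout libraries, 0.0474 to 0.177 CPM in the controls and 0.124 to 0.314 CPM in the naive libraries. It was lower in the controls than in the naive libraries (log2 fold change -0.95, SE 0.31, adjusted p = 0.0114), with overlap, and is named after its values were seen. Ifng stood at 12.3 and 18.4 CPM in the knockout libraries and 5.89 to 13.0 CPM (median 8.80) in the controls (log2 difference 0.82, SE 0.25, adjusted p = 0.0461), and in the naive libraries at 4.78 to 9.41 CPM. Controls and naive libraries did not differ past the threshold for Ifng (log2 fold change 0.33, adjusted p = 0.0846). This changed with single libraries: the difference between controls and naive libraries passed without control 3, 7 or 8 or naive library 2 (adjusted p 0.0285 to 0.0483). The difference between knockout and control was lost without either knockout library or without control 1, 2, 3, 6, 7 or 8 (adjusted p 0.0541 to 0.415).

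Of 15 measured genes among receptors, kinases, STATs and feedback, 13 were lower (39.0% of all genes were) and 1 higher (32.5%) in the controls than in the naive libraries, with a median log2 fold change of -0.85. Ifngr2, a chain of the interferon-gamma receptor, was at 0.467 to 1.66 CPM (median 0.777) in the controls and 17.1 to 25.2 CPM (median 22.3) in the naive libraries (log2 difference -4.43, SE 0.24, adjusted p = 4.62e-11). Ptpn1, a phosphatase of JAK kinases, was at 193 to 218 CPM (median 209.5) in the controls and 182 to 203 CPM (median 195) in the naive libraries (log2 difference 0.10, SE 0.04, adjusted p = 0.0200). In the knockout libraries relative to controls, 2 of the 15 were lower (7.24% of all genes) and 4 higher (7.62%), with a median of 0.11. Ifnar1 and Stat3 were among the higher, at 0.56 and 0.29 on the log2 scale. Without knockout library 2 they were at 0.46 and 0.13, and both calls were lost. Ifnar2, a chain of the type I interferon receptor, was at 97.3 and 98.1 CPM in the knockout libraries and 40.3 to 63.6 CPM (median 57.7) in the controls (log2 difference 0.84, SE 0.13, adjusted p = 0.00216), above every control. The Ptpn1 value depended on the scaling, at 0.00 (adjusted p = 0.999) when libraries were scaled by their totals.

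Among the 7 IRF factors outside the set, 5 were lower (39.0% of all genes) and 1 higher (32.5%) in the controls than in the naive libraries. Irf4, which antigen receptor signals induce in T cells, was at 30.8 to 37.7 CPM (median 32.8) in the controls and 9.81 to 18.7 CPM (median 15.5) in the naive libraries (log2 difference 1.18, SE 0.11, adjusted p = 2.43e-08). For knockout over control 2 were lower (7.24% of all genes) and 1 higher (7.62%). Irf4 was at 44.1 and 86.1 CPM in the knockout libraries and 30.8 to 37.7 CPM (median 32.8) in the controls (log2 difference 0.96, SE 0.16, adjusted p = 0.00310). Irf5 was at 19.7 and 20.6 CPM in the knockout libraries and 27.9 to 43.7 CPM (median 34.9) in the controls (log2 difference -0.79, SE 0.15, adjusted p = 0.00484). Of the sensing adaptors and kinases, 7 of 12 tested were lower in the controls than in the naive libraries (39.0% of all genes) and 1 was higher (32.5%). Tlr3, a sensor of double-stranded RNA in endosomes, was at 0 to 0.332 CPM (median 0.0672) in the controls and 5.90 to 21.8 CPM (median 9.32) in the naive libraries (log2 difference -6.44, SE 0.55, adjusted p = 9.78e-09). Myd88, an adaptor of Toll-like receptors, was at 153 to 174 CPM (median 165) in the controls and 134 to 175 CPM (median 152) in the naive libraries (log2 difference 0.11, SE 0.05, adjusted p = 0.0496). Between knockout and control, 6 of 13 were higher (7.62% of all genes) and 1 lower (7.24%). Traf3, a signalling adaptor, was at 30.3 and 48.9 CPM in the knockout libraries and 24.2 to 30.2 CPM (median 26.0) in the controls (log2 difference 0.56, SE 0.14, adjusted p = 0.0193). Myd88 was at 139 and 142 CPM in the knockout libraries and 153 to 174 CPM (median 165) in the controls (log2 difference -0.22, SE 0.07, adjusted p = 0.0429). Without knockout library 2, Irf4 was at 0.41 (adjusted p = 0.0876) and Traf3 at 0.19 (adjusted p = 0.528) for knockout over control, so that the calls were lost with smaller log2 fold changes. The Irf5 call was lost at a log2 fold change that stayed near its value, -0.82 (adjusted p = 0.0546). The calls of Myd88 changed with many libraries: knockout against control was lost without either knockout library or control 2, 4, 5, 7 or 8 (adjusted p 0.0621 to 0.280), and controls against naive libraries without naive library 1, 2, 4 or 7 (0.0534 to 0.0866) and with libraries scaled by their totals (0.789).

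All 18 interferon-induced GTPases were lower in the controls than in the naive libraries (median log2 fold change -2.36), where 39.0% of all genes were. Iigp1, an immunity-related GTPase, was at 0.763 to 5.05 CPM (median 1.49) in the controls and 47.9 to 109 CPM (median 80.9) in the naive libraries (log2 difference -5.38, SE 0.34, adjusted p = 2.73e-10). Gbp3, a guanylate-binding protein, was at 52.1 to 86.6 CPM (median 61.6) in the controls and 80.9 to 112 CPM (median 93.5) in the naive libraries (log2 difference -0.53, SE 0.09, adjusted p = 5.85e-05). For knockout over control 2 of the 18 were lower (7.24% of all genes), the neighbouring copies Tgtp1 and Tgtp2. Tgtp1 was at 16.9 and 26.5 CPM in the knockout libraries and 47.1 to 97.0 CPM (median 68.8) in the controls (log2 difference -1.69, SE 0.28, adjusted p = 0.00266). Tgtp2 was at 26.5 and 39.1 CPM in the knockout libraries and 69.9 to 132 CPM (median 95.8) in the controls (log2 difference -1.56, SE 0.25, adjusted p = 0.00214). Counts of this pair may be split between near-identical copies. Of 54 other interferon-induced genes, 48 were lower (39.0% of all genes) and 2 higher (32.5%) in the controls than in the naive libraries, with a median of -1.11. Ifit1bl1, an IFIT-like gene, was at 1.82 to 6.85 CPM (median 4.31) in the controls and 127 to 266 CPM (median 208) in the naive libraries (log2 difference -5.55, SE 0.25, adjusted p = 4.67e-12). Ifi204, of the p200 family, was at 8.88 to 27.8 CPM in the controls and 6.55 to 12.8 CPM (median 8.14) in the naive libraries (log2 difference 1.02, SE 0.20, adjusted p = 0.000220). Relative to controls, 7 of these 54 were lower (7.24% of all genes) and 1 was higher (7.62%) in the knockout libraries. The chemokine Cxcl10 was at 2.88 and 3.35 CPM in the knockout libraries and 4.78 to 12.4 CPM (median 9.93) in the controls (log2 difference -1.46, SE 0.39, adjusted p = 0.0270). Ifit2 was at 25.8 and 37.6 CPM in the knockout libraries and 15.8 to 23.2 CPM (median 17.6) in the controls (log2 difference 0.79, SE 0.15, adjusted p = 0.00535). Without knockout library 2, the log2 fold changes of Tgtp1 (-1.39, adjusted p = 0.0605) and Cxcl10 (-1.35, adjusted p = 0.230) stayed near their values, that of Ifit2 was 0.51 (adjusted p = 0.158), and all 3 calls were lost. The Cxcl10 call was lost without knockout library 1 as well (-1.59, adjusted p = 0.0965).

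Markers of other cells differed between the groups, and not all in the same direction. The 8 dendritic cell markers summed to 148 and 153 CPM in the knockout libraries, 123 to 154 CPM in the controls and 439 to 1240 CPM in the naive libraries, and 7 of 7 tested were lower in the controls. Flt3 was at 0.244 and 0.296 CPM in the knockout libraries, up to 0.56 CPM in the controls and 10.7 to 26.6 CPM in the naive libraries. Clec9a was at 0.0899 and 0.110 CPM in the knockout libraries, at 0 in 4 of 8 controls and up to 0.203 CPM in the others, and at 5.38 CPM or more in the naive libraries. The 7 plasmacytoid dendritic cell markers, of a cell type known for interferon production, summed to 3.79 and 5.56 CPM in the knockout libraries, 3.53 to 10.2 CPM in the controls and 24.1 to 58.0 CPM in the naive libraries. Their defining marker Siglech was at 0 in all 10 stimulated libraries and at 0.0881 to 3.73 CPM in the naive libraries. NK cell markers summed to 8.60 and 10.7 CPM in the knockout libraries, 5.41 to 14.8 CPM in the controls and 51.0 to 105 CPM in the naive libraries. The naive library with the lowest values of the 36 genes, library 2, had 24.1 CPM of the plasmacytoid list, the lowest of its group, and 949 CPM of the dendritic list. The medians of the naive group were 42.0 and 871 CPM. This is 1 of 8 libraries, and a link was not tested. CD4 T cell markers summed to 4.42 to 20.8 CPM (median 13.9) in the controls and 4.13 to 6.07 CPM (median 4.78) in the naive libraries, with overlap. Of 4 tested, 2 were higher in the controls (32.5% of all genes) and 1 was lower (39.0%). The sum of these markers was 3.77 and 4.71 CPM in the knockout libraries. Platelet markers overlapped, at 0.094 to 2.61 CPM in the controls and 0.716 to 2.51 CPM in the naive libraries. The erythroid markers were 133 CPM in knockout library 1 and 13.4 CPM in library 2. They were at most 17.5 CPM in the controls and 2.02 to 41.0 CPM in the naive libraries. B cell markers summed to 670 and 835 CPM in the knockout libraries, 396 to 476 CPM in the controls and 738 to 1200 CPM in the naive libraries, and monocyte and macrophage markers to 35.3 and 60.5 CPM in the knockout libraries, 15.7 to 45.0 CPM in the controls and 40.0 to 113 CPM in the naive libraries. The part of other cells in the values of the 36 genes was not tested.

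The deposited transcript table allowed the make-up of each gene's transcripts to be compared, since Tra2b encodes a splicing regulator. Among the 36 genes, 28 had transcripts that could be tested for knockout against control, and 2 passed, Sp100 and Isg20 (7.14%), where 3.19% of all 9653 genes tested passed. For Isg20, the transcript Isg20-203 held 44.2% of the counts in knockout library 1 and 10.6% in library 2, against 0.695 to 7.06% in the controls (Simes adjusted p = 0.000381). Without knockout library 1 the Isg20 difference did not pass (adjusted p = 0.782), nor did it in the quasi-likelihood form of the test (adjusted p = 0.117). The quasi-likelihood form was run first and called 0 of the 28 genes. The likelihood-ratio form reported here replaced it after results of both forms had been seen, because it recovered more of the changes put into simulated data. For knockout against control it still recovered few of them there, with more false calls than recovered changes, so that both calls are uncertain and a missing call says little. Both genes also passed in limma voom. Between controls and naive libraries 16 of 29 genes passed (55.2%), where 44.9% of all 8581 genes did.

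For Sp100 the transcript Sp100-210 held 27.2 and 27.6% of the counts in the knockout libraries, against 5.25 to 9.19% in the controls and between 3.95 and 7.12% in the naive libraries. The 2 knockout libraries lay next to each other and above every other library, while the total level of Sp100 did not differ past the threshold between knockout and control. The usage of Sp100 transcripts differed between knockout and control with a Simes adjusted p of 1.85e-07. It passed with either knockout library left out and with each control left out, but not in the quasi-likelihood form of the test (adjusted p = 0.120). In GENCODE M21, Sp100-210 skips an exon of 54 bases that Sp100-213 holds, at chr1:85681086-85681139 on the plus strand of GRCm38. This pair of transcripts, of 1597 and 1666 bases, also differs elsewhere. The sequence of the exon is shown because Sp100-210 lacks it, with the letters GAA in capitals.
Sp100 exon: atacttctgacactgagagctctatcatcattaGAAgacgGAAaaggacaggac

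The exon's length is a multiple of 3, equal to 18 codons. It holds GAA 2 times, and 40.6% of the 1258 internal exons of 54 bases in protein-coding transcripts hold it at least as often, so exons of this length hold these letters often. Of the annotated Sp100 transcripts that span this place, 6 hold the exon and 2 skip it. The skipping transcripts took 33.3 and 33.5% of the spanning counts in the knockout libraries, between 10.1 and 12.7% (median 11.9%) in the controls and between 6.09 and 9.70% in the naive libraries. The means were 33.4 ± 0.166% in the knockout libraries (SD, n = 2), 11.8 ± 0.839% in the controls and 7.62 ± 1.37% in the naive libraries (SD, n = 8 each), so knockout minus control was 21.7 percentage points. This share was chosen after the transcript values were seen and is given as a description. Short reads are shared among the transcripts of a gene, so each share is the quantifier's estimate. Taken between Sp100-210 and Sp100-213 alone, the share was 85.4 and 92.9% in the knockout libraries and spread from 23.6 to 79.9% in the controls.

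**Figure D5:**
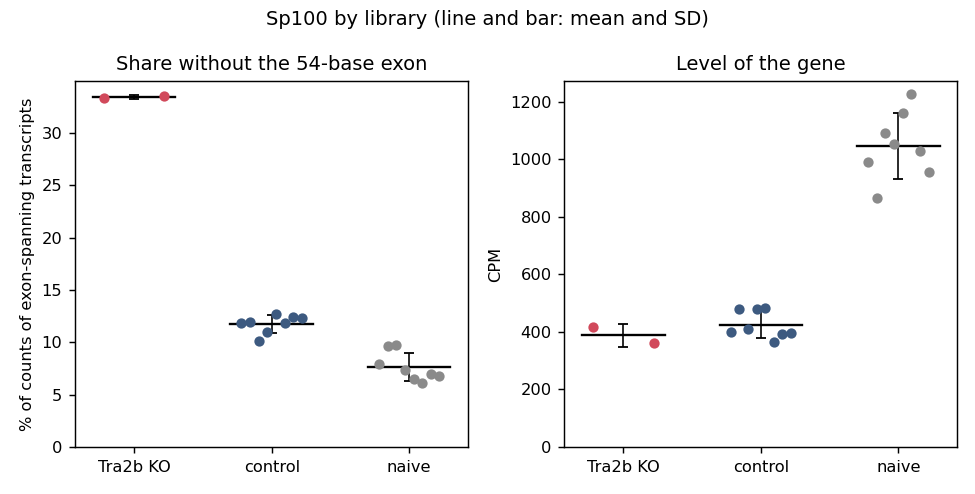
Left, the share of counts of exon-spanning Sp100 transcripts that lack the 54-base exon. Right, the level of Sp100 in CPM, each by library with the mean and SD of each group and Tra2b knockout left of control and naive. The 2 knockout libraries lie at 33.3 and 33.5% on the left, above controls (10.1 to 12.7%) and naive libraries (6.09 to 9.70%), and on the right they lie near the controls.

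Other differences in transcript make-up lay between controls and naive libraries. For Ifi209, Ifi209-202, annotated as a target of nonsense-mediated decay, the removal of transcripts with an early stop, held 0.127 to 0.879% of the counts in the controls, against 7.12 to 10.9% in the naive libraries (Simes adjusted p = 6.02e-34 for the gene). For Ifi35, the decay-annotated transcript Ifi35-203 held 10.3 and 12.3% in the knockout libraries, 5.63 to 8.52% in the controls, against 13.8 to 17.3% in the naive libraries (adjusted p = 7.53e-08 for controls against naive libraries, and 0.193 in the quasi-likelihood form). Controls lay below naive libraries without overlap for both transcripts, and for Ifi35-203 the knockout libraries lay between them. The knockout difference in Ifi35 usage did not pass (adjusted p = 1.0). The other 14 of the 16 genes with a difference between controls and naive libraries were Ifi203, Sp100, Bst2, Cmpk2, Samhd1, Irf7, Zbp1, Ifih1, Isg20, Ddx58, Oasl2, Irf9, Mx1 and Parp14. The 16 were 55.2% of the genes tested here, beside 44.9% of all genes tested. In the quasi-likelihood form fewer passed, and Isg20 did not (adjusted p = 0.158).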

How the data were processed

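RNA was prepared with a micro-column kit and a low-input polyA cDNA kit, per the labels' protocols. The authors deposited gene and transcript tables of estimated counts, whole numbers and not normalised, for 18 libraries, with 0 further columns left unused. The submitters' processing notes name StringTie 2.1.0, STAR 2.7.1a, DESeq2 1.30.1, SAMtools 1.9 and R 4.0.5 with the builds mm39 and mm10, without roles. All 55536 Ensembl gene IDs matched GENCODE M21 (GRCm38), and each gene value equalled the sum of its transcripts. Rows with numeric IDs, 0.0513 to 0.132% of counts, were left out. Libraries held 68249844 to 93972513 counts.

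Genes were tested with edgeR 4.0.16 in R 4.3.3, using a robust quasi-likelihood fit, filterByExpr with a minimum count of 10, TMM scaling, a prior count of 2, the 2 groups compared, and Benjamini-Hochberg adjustment over all genes with a threshold of 0.05. Plain CPM carry TMM scaling over the 20750 genes that passed the filter run on the 18 libraries together. That filter does not ask for counts in every library. Each SE of a log2 fold change is its size divided by the square root of the quasi-likelihood F statistic, and is approximate. Transcript usage was tested with diffSpliceDGE (likelihood ratio, Simes test per gene). A usage p is adjusted over all genes tested. The scripts were tested on simulated data, where the gene tests recovered most of the larger changes put in and fewer of the small ones with 2 knockout libraries, and the usage test few for knockout against control. The usage test was first run in its quasi-likelihood form, on the simulated and the deposited counts, and the likelihood-ratio form was made the main one afterwards, because it recovered more of the changes put in.

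The members and the lists were chosen with earlier results of these data known. In each role group, values by library are given for the 2 genes of highest mean CPM, for genes not lower in controls than in naive libraries, and for genes called in knockout against control. In each pathway list, the called genes with the largest and smallest log2 fold change at a mean log2 CPM of at least 1 are named, apart from results not reported here. Mx1 between knockout and control, and the transcripts named, were chosen after their values were seen. Alternatives were other scalings, DESeq2 1.42.0, limma 3.58.1 voom, no filter, a fold threshold, a replicate block, a trend on exon length, and other sets of libraries. The labels do not say that library numbers mark pairs, and the numbers were not used to pair libraries.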

Additional observations from a re-analysis of the deposited data

Results flagged for a closer look

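Of 74 groups of 8 values tested, 2 had a library far from the other 7 by Dixon's criterion, where chance alone gives about 1 in 20. Both lay in naive library 2, which held 117 CPM of Ddx58 and 128 CPM of Zbp1, the lowest values of the naive group for both genes. That library was the lowest of the naive group for 35 of the 36 genes. Both values come from 1 library and are not separate observations.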

How the results depend on the processing

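Of the 36 genes, 34 were lower in controls than in naive libraries, with 32 to 35 when single libraries were left out and 29 where calls also needed a log2 fold change past 1 in size, and the single higher gene became 0 under that threshold and with controls 1 and 2 alone. Knockout over control depended on the settings. Its 3 lower genes became 6 in DESeq2, 5 against controls 3 to 8, 1 in limma voom, 1 with the fold threshold and 0 against controls 1 and 2 alone, and its 2 higher genes 1 with the fold threshold and 0 against controls 1 and 2 alone. Leaving out single libraries gave 0 to 7 lower and 0 to 3 higher genes for knockout over control, 30 to 33 lower and 0 to 1 higher for knockout over naive libraries, and 14 to 18 and 2 to 2 genes with a usage difference for controls over naive libraries and for knockout over control. The quasi-likelihood usage fit, which was run first, called 7 and 0 in those comparisons. Parp14 in knockout over naive libraries was at -1.13 without knockout library 2 and 0.64 without knockout library 1, and Ptpn1 in controls over naive libraries was at -0.0 when scaled by library totals. Scaling by totals moved the median of all genes for knockout over naive libraries to -0.19, against -0.08 with TMM.

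A replicate block could be fitted. Same-numbered controls and naive libraries did not deviate together (correlations -0.115 to 0.188), and 1 of 8 controls correlated best with the naive library of its own number. Between knockout and control both correlations were positive, 0.115 and 0.147, and knockout library 2 but not library 1 correlated best with the control of its own number, which is too few pairs to settle a pairing. With the block, 0 genes were lower and 0 higher for knockout over control (edgeR; 3 and 5 at an unadjusted p under 0.05), a fit that rests on 2 pairs, and 27 of 36 were lower for knockout over naive libraries.

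Over all genes, 2772 calls in knockout over control became 701 with the fold threshold, 0 with the block, 651 without knockout library 2 and 5 against controls 1 and 2 alone. The 12213 calls in controls over naive libraries became 4754 with the fold threshold. The 8837 in knockout over naive libraries became 4078 with it and 3322 with the block. Usage calls for knockout over control numbered 308, against 888 in limma voom, 1713 with the block and 164 in the quasi-likelihood fit, and 3857 for controls over naive libraries, against 751 in the quasi-likelihood fit. The longer response element gave 25.9% in place of 51.9% of promoters. Sp100-210 and Sp100-213 alone gave 49.9 in place of 21.7 percentage points. The causes were not tested. Depth limits the genes near 0, such as the interferons, and 2 knockout libraries limit every comparison with them.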
